A study of Mus musculus with 12 samples.

Results

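Levels of 9 transcription factor genes linked to the macrophage lineage were followed across bone marrow-derived macrophages (BMDMs) of both Nlrp3 genotypes. The genes were Spi1, Runx1, Cebpa, Cebpb, Cebpd, Maf, Klf2, Klf4 and Klf6, taken by symbol from a table of 55335 genes. Each symbol matched 1 row, and all 9 rows were among the 12622 genes that reached 1 FPKM in at least 3 of the 12 libraries.

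The study profiled RNA of BMDMs, which are grown from marrow in medium with macrophage colony-stimulating factor, to learn how NLRP3 shapes the macrophage response. Wild-type and Nlrp3-/- cells were each sampled without stimulation (control) and after costimulation with lipopolysaccharide (LPS) and ATP, with 3 libraries in each of the 4 groups. Per the labels, stimulated cells had 4 hours of LPS followed by 30 min of ATP. The study's methods describe longer exposures, so the times are those of the labels.

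The donors were C57BL/6 mice, for which the methods give a single adult age and no sex. The mutant cells lacked NLRP3 through their whole development in the marrow and the dish, not only at stimulation. The labels do not say that replicates came from separate mice or cultures, so p-values measure only the spread between these libraries, which may be technical.

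Macrophage identity rests on a small set of transcription factors. PU.1, encoded by Spi1, opens myeloid enhancers, C/EBP proteins act with it to switch on myeloid genes, and MAF and KLF proteins shape proliferation, quiescence and inflammatory tone. LPS is sensed by TLR4 and acts largely through NF-kB, AP-1 and interferon regulatory factors, while ATP opens P2X7 channels and triggers the NLRP3 inflammasome in primed cells.

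Nlrp3 was read first as a check of the labels. It was at 9.24, 9.71 and 10.1 FPKM in wild-type control cells and at 32.1, 33.0 and 33.6 FPKM in wild-type cells after LPS+ATP, and it was listed at 0 in all 6 Nlrp3-/- libraries. The cytokine gene Il1b averaged 0.239 FPKM in wild-type control cells and 1386 FPKM after LPS+ATP, and 1.46 and 995 FPKM in Nlrp3-/- cells. Tnf averaged 7.49 and 572 FPKM in wild-type cells and 11.5 and 422 FPKM in Nlrp3-/- cells. Nlrp3 in each library, and both cytokine genes on average, followed the labels.

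Sex went with genotype, as did the level of Nnt, a gene that differs between substrains. Xist, the RNA of the inactive X chromosome, averaged 53.8 FPKM in Nlrp3-/- control libraries and 0.028 FPKM in wild-type control libraries, while the Y-linked gene Ddx3y averaged 9.10 FPKM in wild-type control libraries and was listed at 0 in every Nlrp3-/- library. Nnt, a mitochondrial transhydrogenase gene that is deleted in part in C57BL/6J mice, averaged 9.38 FPKM in wild-type control libraries and 1.16 FPKM in those of Nlrp3-/- cells. Substrain was read from Nnt alone, which was also lower, at 4.23 FPKM, in wild-type cells after LPS+ATP. Nlrp3, donor sex and any difference of donor substrain cannot be told apart in any difference between the genotypes.

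The macrophage label was checked with lists of marker genes. The 8 macrophage markers summed to 20752 ± 674 FPKM in wild-type control cells, 11816 ± 39.8 FPKM in wild-type cells after LPS+ATP, 19224 ± 134 FPKM in Nlrp3-/- control cells and 11221 ± 129 FPKM in Nlrp3-/- cells after LPS+ATP (mean ± SD, n = 3, as for all later values of this form). Lyz2, the lysozyme gene, made up most of each sum, and none of the 8 markers averaged under 0.1 FPKM in any group. With LPS+ATP in wild-type cells, mean Lyz2 went from 18464 to 9471 FPKM and Cd68 from 1450 to 814 FPKM. Cd14 rose from 111 to 530 FPKM, Fcgr1 from 51.2 to 204 FPKM and Adgre1 from 237 to 460 FPKM, so the sum hides both directions. By limma's adjusted p under 0.05, 3 of the 9 tested rows were higher there and 4 lower (76.4% of all genes passed). Control cells lacking NLRP3 averaged 877 FPKM for Cd68 and 184 FPKM for Adgre1, with 0 rows higher and 5 lower (47.8% of all).

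Summed markers of granulocytic and stromal cells were higher in Nlrp3-/- cells. The 12 markers of neutrophils and granulocyte precursors summed to 369 ± 18.7 FPKM in wild-type control cells and 1925 ± 25.5 FPKM in those lacking NLRP3, and to 335 ± 7.84 and 714 ± 4.68 FPKM after LPS+ATP. S100a9 led the sum in 3 groups and Lcn2, at 218 FPKM, in stimulated wild-type cells. With LPS+ATP in wild-type cells, Lcn2 had a log2 fold change of 4.32 while 7 of the 11 tested markers were called lower (11.2% of all tested genes), so the sum hides both directions. Ly6g of mature neutrophils was near 0 in both wild-type groups, and Mpo and Retnlg were so in stimulated wild-type cells. The 8 fibroblast or stromal markers, led by Col1a1, summed to 167 ± 2.64 FPKM in wild-type control cells and 1216 ± 8.49 FPKM in those lacking NLRP3, and to 194 ± 1.41 and 947 ± 8.01 FPKM after LPS+ATP. In bulk RNA, a change in the number of cells of a type and a change in RNA per cell cannot be told apart.

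Other marker lists had lower sums. Mast cell or basophil markers, led by Mcpt8, summed to 2.14 ± 0.309 FPKM in wild-type control cells and 10.7 ± 0.838 FPKM in those lacking NLRP3, with the mean of Ms4a2 under 0.1 FPKM in every group. Endothelial markers summed to 13.2 ± 0.786 and 15.9 ± 0.763 FPKM in the same groups, with members on both sides. Vwf averaged 8.67 and 5.29 FPKM and Kdr 1.91 and 1.52 FPKM, while Cdh5 averaged 1.51 and 5.19 FPKM.

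B cell markers, led by Cd79b, summed to 1.44 ± 0.203 FPKM in wild-type control cells and 4.85 ± 0.530 FPKM in those lacking NLRP3. The 6 dendritic cell markers summed to between 0.528 and 1.02 FPKM on average over the 4 groups, and the 4 T cell markers to at most 0.177 FPKM.

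**Figure D1:**
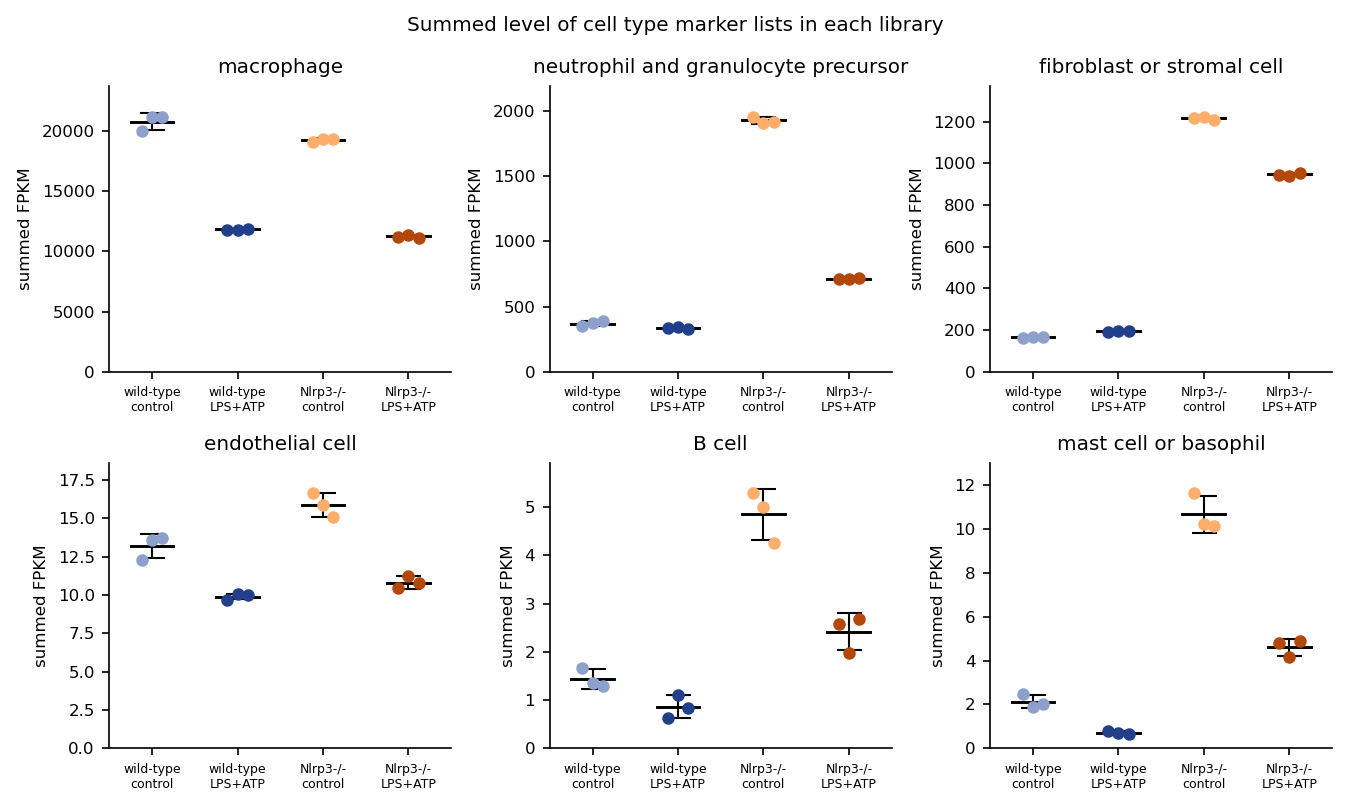
Summed FPKM of 6 marker lists (vertical axis, from 0) in each of the 12 libraries, by group; points are libraries, lines are group means and bars are SD (n = 3). Neutrophil and granulocyte precursor markers and fibroblast or stromal markers were highest in Nlrp3-/- control cells, at 1925 and 1216 FPKM.

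Libraries of a group were alike, and FPKM summed to between 283278 and 299393 per library. Over the tested genes, Pearson's r of log2(FPKM + 1) was 0.990 to 0.993 between libraries of the same group and 0.815 to 0.964 between groups. Read depth was judged from the step size of low values. The deepest library was wild-type control replicate 3, at 1.22 times the shallowest. In each library, between 3 and 13 tested genes lay over 2 log2 units from the mean of the other replicates. Cebpa in wild-type LPS+ATP replicate 1 was among them, which bears on every Cebpa result.

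Members were compared with limma on log2(FPKM + 1) over all 12622 tested genes, so each log2 fold change is on that scale and understates changes of low genes. A gene was called when its Benjamini-Hochberg adjusted p was under 0.05 and its log2 fold change was at least 1 in either direction. In wild-type cells, LPS+ATP raised 1 of the 9 factors past both limits (8.25% of all tested genes) and lowered 3 (11.2% of all). In Nlrp3-/- cells, 1 was called higher (6.64% of all) and 2 lower (8.21% of all). The factor that rose was Cebpb in both genotypes. Cebpa and Maf fell past both limits in both genotypes, and Klf2 did so in wild-type cells. The Cebpa call in Nlrp3-/- cells was lost under several settings given below, and in those settings Cebpa leaves that count. Without wild-type LPS+ATP replicate 1 the call was kept (−1.53, limma adjusted p = 1.12e-09).

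Genotype moved fewer factors past both limits. Without stimulation, 1 of 9 was called higher in Nlrp3-/- cells (Klf4, 6.02% of all genes) and 0 lower (0.689% of all). After LPS+ATP, 1 was called higher (Klf2, 4.48% of all) and 0 lower (0.57% of all). By limma's unadjusted p under 0.05 alone, 5 factors were higher and 2 lower in control cells (37% and 16.7% of all), and 5 higher and 3 lower after LPS+ATP (39.7% and 14.6% of all). For the difference between the genotypes' responses, 0 factors were called higher (0.721% of all) and 0 lower (1.43% of all), with 5 past limma's unadjusted p under 0.05 (38.3% of all).

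By the adjusted p alone, 8 of the 9 factors differed with LPS+ATP in wild-type cells (76.4% of all tested genes) and 7 in Nlrp3-/- cells (74.3% of all). Between genotypes, 7 differed without stimulation (47.8% of all) and 7 after LPS+ATP (48.5% of all). For the difference between responses, 5 did so (27.7% of all).

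The centre of the fit also mattered for small changes. The median log2 fold change of the 9 factors was −0.20 with LPS+ATP in wild-type cells and −0.01 in Nlrp3-/- cells, against −0.25 and −0.24 over all tested genes. Between genotypes it was 0.21 without stimulation and 0.55 after LPS+ATP, against 0.09 and 0.11 over all genes. Rescaling libraries by median ratios moved the all-gene median by 0.25 and 0.23 for the 2 responses and by −0.12 and −0.15 for the genotype comparisons.

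**Figure D2:**
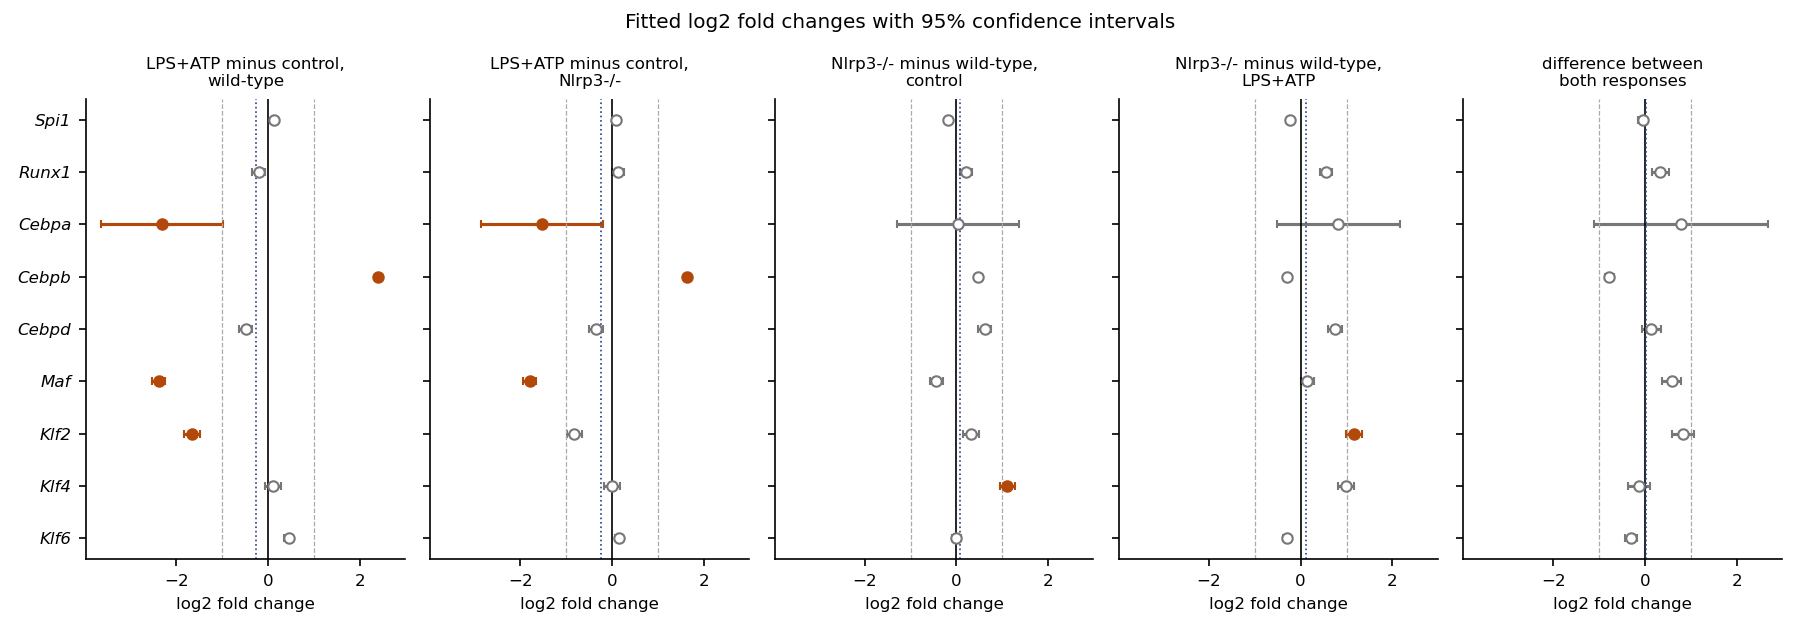
Fitted log2 fold change (horizontal axis) of the 9 factors in 5 comparisons, with 95% confidence intervals from limma over 12 libraries; filled orange points passed both limits, dashed lines mark the fold limit of 1, and the dotted line is the median of all tested genes. Cebpb lies to the right and Cebpa and Maf to the left in both responses, and the wide Cebpa intervals reflect wild-type LPS+ATP replicate 1.

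FPKM is scaled by gene length, so the factors can be ranked by it. In wild-type control cells Spi1 was highest at 90.7 FPKM, above 96.8% of tested genes, followed by Cebpb (73.4), Klf6 (69.0), Maf (43.9), Cebpa (40.1), Klf2 (10.9), Cebpd (5.75), Runx1 (5.36) and Klf4 (4.04 FPKM). Libraries of Cebpb and Klf6 overlapped in that order, as did those of Maf and Cebpa and those of Cebpd and Runx1. After LPS+ATP, wild-type cells had Cebpb first at 394 FPKM, above 99.2% of tested genes, and Klf2 last at 2.79 FPKM. Cebpa ran from 1.10 to 16.3 FPKM there, so its libraries overlapped those of every factor ranked under it. Libraries of Runx1 and Klf4 overlapped too.

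In both states of Nlrp3-/- cells, Cebpb led, at 103 and 319 FPKM, and Spi1 and Klf6 followed. Runx1 was lowest in control cells at 6.37 FPKM and after LPS+ATP at 7.05 FPKM. In the stimulated state the libraries of Klf2, Cebpd and Runx1 overlapped, and Klf4 at 9.86 FPKM stood above Maf at 8.50 FPKM with no overlap.

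**Figure D3:**
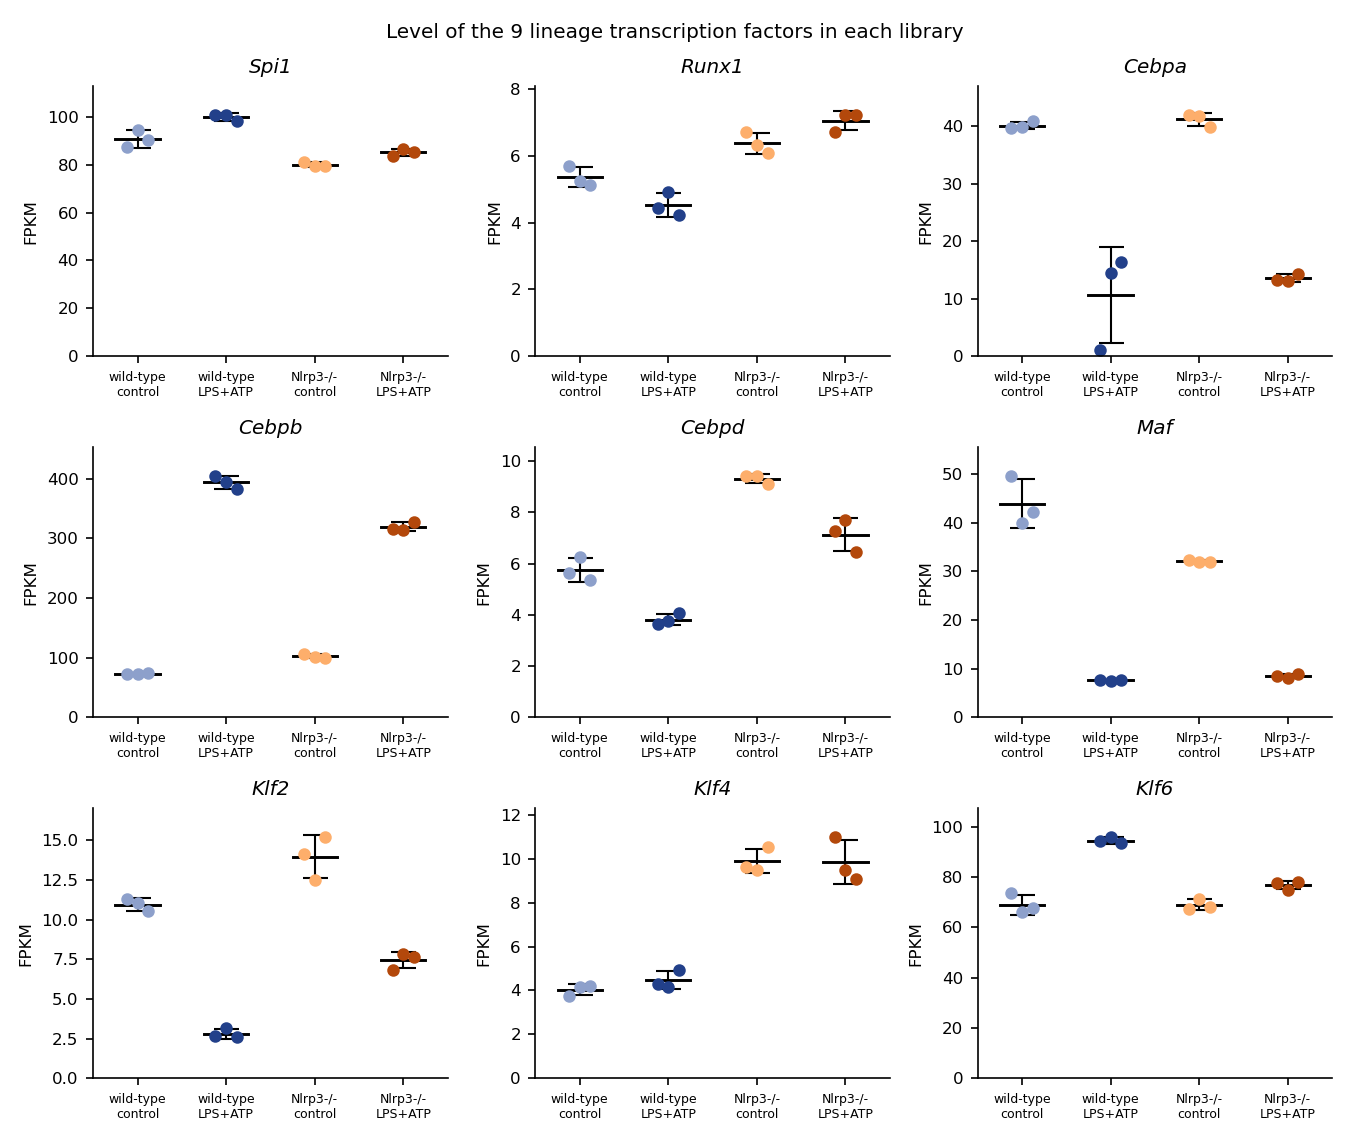
FPKM (vertical axis, from 0) of each of the 9 factors in every library, by group; points are libraries, lines are group means and bars are SD (n = 3). Cebpb rose and Maf fell with LPS+ATP in both genotypes, and 1 Cebpa point at 1.10 FPKM lies far under the others of its group.

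Spi1 (ENSMUSG00000002111; GRCm38 chr2:91082390-91115756, plus strand) encodes PU.1, the ETS factor on which macrophage development depends. It was at 87.2, 94.5 and 90.4 FPKM in wild-type control cells and at 101, 101 and 98.0 FPKM after LPS+ATP. Cells lacking NLRP3 had 81.1, 79.2 and 79.4 FPKM without and 83.5, 86.7 and 85.2 FPKM with LPS+ATP. The stimulated libraries lay above the control libraries in each genotype, and every Nlrp3-/- library lay under every wild-type library of the same state.

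The Spi1 changes were small. Its log2 fold change with LPS+ATP was 0.14 in wild-type cells (95% confidence interval 0.07 to 0.21, limma adjusted p = 0.00212) and 0.09 in Nlrp3-/- cells (adjusted p = 0.0242), and it was −0.18 between genotypes without stimulation (limma adjusted p = 7.03e-04). The difference between the responses was −0.05 (limma adjusted p = 0.48). After median-ratio scaling the responses were 0.46 and 0.38. In Nlrp3-/- cells the call on adjusted p was lost without control replicate 2 (0.08, limma adjusted p = 0.0661) or 3 (0.09, 0.0636), and without LPS+ATP replicate 2 (0.08, 0.0827) or 3 (0.09, 0.0547), and with no variance trend (0.09, 0.0588).

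Runx1 (ENSMUSG00000022952; chr16:92601466-92826149, minus strand) is the core-binding factor needed for definitive blood formation. It was at 5.71, 5.24 and 5.13 FPKM in wild-type control cells and at 4.43, 4.92 and 4.21 FPKM after LPS+ATP. The mutant libraries gave 6.71, 6.33 and 6.07 FPKM without and 6.72, 7.22 and 7.21 FPKM with LPS+ATP. Stimulated wild-type libraries were the lowest and stimulated Nlrp3-/- libraries the highest.

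Its response differed between genotypes. The log2 fold change with LPS+ATP was −0.20 in wild-type cells (limma adjusted p = 0.00877) and 0.13 in Nlrp3-/- cells (adjusted p = 0.0734), and the difference was 0.33 (95% confidence interval 0.15 to 0.52, limma adjusted p = 0.0133). The wild-type fall turned to 0.07 (limma adjusted p = 0.322) after median-ratio scaling, whereas the difference was then 0.31. The Nlrp3-/- response became 0.38 (limma adjusted p = 1.98e-04) after that scaling and 0.20 (limma adjusted p = 0.0193) after TPM scaling. After LPS+ATP, Runx1 was higher in Nlrp3-/- cells by 0.55 (limma adjusted p = 1.80e-05). Without stimulation the genotypes differed by 0.21 (limma adjusted p = 0.0126), by 0.18 without Nlrp3-/- control replicate 1 (adjusted p = 0.0522), and by 0.08 after median-ratio scaling (adjusted p = 0.318). The antisense gene Gm26626 lies within Runx1 and averaged 0.241 FPKM in wild-type control cells and 1.56 FPKM after LPS+ATP. Whether reads were counted by strand is not given in the sources used here, so reads of overlapping genes cannot be told apart.

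Cebpb (ENSMUSG00000056501; chr2:167688915-167690418, plus strand) encodes C/EBPβ, the family member linked to inflammatory gene induction in macrophages. Its promoter is shown because it was the factor with the largest rise. The 250 bases before its start (RefSeq, GRCm38.p6 chr2:167688665-167688914, plus strand) lie in an intron of Tmem189 on the other strand and hold no annotated exon. Capitals mark matches to a loose NF-kB pattern, GGG and CC with any 5 bases between them, on either strand.
Cebpb: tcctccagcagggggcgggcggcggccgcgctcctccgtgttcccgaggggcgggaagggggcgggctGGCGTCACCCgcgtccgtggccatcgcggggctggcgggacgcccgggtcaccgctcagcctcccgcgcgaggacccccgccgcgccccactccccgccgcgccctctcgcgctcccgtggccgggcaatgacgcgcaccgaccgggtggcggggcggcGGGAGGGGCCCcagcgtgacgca

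Cebpb was at 72.8, 72.6 and 74.7 FPKM in wild-type control cells and at 405, 395 and 382 FPKM after LPS+ATP. Libraries of mutant cells had 106, 102 and 99.8 FPKM without and 315, 315 and 328 FPKM with LPS+ATP. Nlrp3-/- cells thus started above wild-type cells and ended under them, and no 2 groups overlapped.

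The rise of Cebpb was 2.41 on the log2 scale in wild-type cells (95% confidence interval 2.34 to 2.48, limma adjusted p = 8.32e-14), or 5.31-fold. In Nlrp3-/- cells it was 1.63 (1.56 to 1.70, limma adjusted p = 2.61e-12), or 3.09-fold. The difference between the responses was −0.78 (−0.88 to −0.68, limma adjusted p = 7.05e-07). Nlrp3-/- cells were higher by 0.48 without stimulation (limma adjusted p = 2.68e-07) and differed by −0.30 after LPS+ATP (limma adjusted p = 1.39e-05). Tmem189, which overlaps Cebpb on the other strand, averaged 49.7 and 41.2 FPKM in the wild-type groups and 41.6 and 32.2 FPKM in the Nlrp3-/- groups.

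Cebpa (ENSMUSG00000034957; chr7:35119293-35121928, plus strand) encodes C/EBPα, which drives myeloid commitment and restrains cell division. Its promoter is set beside that of Cebpb because these family members moved in opposite directions. The window (RefSeq, GRCm38.p6 chr7:35119043-35119292, plus strand) lies in an intron of the antisense gene Gm45091 and holds no annotated exon. Capitals mark the same pattern.
Cebpa: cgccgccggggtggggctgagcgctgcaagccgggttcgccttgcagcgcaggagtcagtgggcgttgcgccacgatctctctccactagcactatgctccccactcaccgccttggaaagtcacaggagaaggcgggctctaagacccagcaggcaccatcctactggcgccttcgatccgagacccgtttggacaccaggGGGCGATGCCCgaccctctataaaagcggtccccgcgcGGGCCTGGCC

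Cebpa was at 39.7, 39.8 and 40.9 FPKM in wild-type control cells and at 1.10, 14.5 and 16.3 FPKM after LPS+ATP. Nlrp3-/- libraries gave 41.9, 41.8 and 39.9 FPKM without and 13.3, 13.1 and 14.3 FPKM with LPS+ATP. Every stimulated library lay under every control library, and wild-type LPS+ATP replicate 1 lay far under the other 11. Gm45091 was listed at 0 in all 3 stimulated wild-type libraries and was at most 0.608 FPKM elsewhere, and the source of the low value was not tested.

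With all libraries, Cebpa fell by 2.31 on the log2 scale in wild-type cells (95% confidence interval −3.65 to −0.98, limma adjusted p = 0.00464) and by 1.53 in Nlrp3-/- cells (−2.87 to −0.19, limma adjusted p = 0.0392). Without wild-type LPS+ATP replicate 1, the fold change was −1.33 in wild-type cells (limma adjusted p = 7.40e-09) and −1.53 in Nlrp3-/- cells (limma adjusted p = 1.12e-09). With that library in the fit, the Nlrp3-/- value lost its call whenever any 1 library of the other 3 groups was left out, where it was −1.57 to −1.51 (limma adjusted p = 0.0503 to 0.0812), and after median-ratio scaling (−1.25, adjusted p = 0.101). With all libraries kept, the limma adjusted p was also over 0.05 with a pseudocount of 0.1 (−1.59, 0.0781), with no filter on low values (−1.53, 0.0891) and after TPM scaling (−1.52, 0.0773).

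The same library set the sign of the genotype contrasts of Cebpa. After LPS+ATP, the log2 difference between genotypes was 0.82 with it (limma adjusted p = 0.294) and −0.17 without it (limma adjusted p = 0.0318). The difference between responses was 0.78 with it (limma adjusted p = 0.55) and −0.21 without it (limma adjusted p = 0.0705). In control cells the genotypes differed by 0.04 (95% confidence interval −1.30 to 1.38, limma adjusted p = 0.968). Leaving that library out did not alter how many of the 9 factors were called in any of the 5 comparisons.

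Cebpd (ENSMUSG00000071637; chr16:15887286-15891031, plus strand) encodes C/EBPδ, an acute-phase family member, and overlaps Spidr on the other strand. It was at 5.62, 6.27 and 5.36 FPKM in wild-type control cells and at 3.62, 3.76 and 4.06 FPKM after LPS+ATP. Cells lacking NLRP3 had 9.41, 9.42 and 9.11 FPKM without and 7.25, 7.68 and 6.43 FPKM with LPS+ATP. Every Nlrp3-/- library lay above every wild-type library.

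Cebpd fell with LPS+ATP by 0.49 in wild-type cells (limma adjusted p = 4.81e-05) and by 0.35 in Nlrp3-/- cells (limma adjusted p = 7.14e-04), under the fold limit in both. After median-ratio scaling the values were −0.22 (limma adjusted p = 0.0145) and −0.09 (limma adjusted p = 0.294). It was higher in Nlrp3-/- cells by 0.61 without stimulation (limma adjusted p = 1.72e-05) and by 0.75 after LPS+ATP (limma adjusted p = 3.53e-06). The marker sums of stromal and granulocyte precursor cells were also higher in Nlrp3-/- cells, and their part in this difference was not tested.

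Together these changes altered the makeup of the C/EBP family. Of the summed FPKM of Cebpa, Cebpb, Cebpd, Cebpe and Cebpg, Cebpa made up 31.2 ± 0.159% in wild-type control cells and 24.7 ± 0.275% in Nlrp3-/- control cells. After LPS+ATP its share was 0.264, 3.44 and 3.97% in the wild-type libraries and 3.90 ± 0.0917% in Nlrp3-/- cells. The share of Cebpb went from 57.0 ± 0.382 to 94.6 ± 1.99% in wild-type and from 61.5 ± 0.883 to 91.6 ± 0.0357% in Nlrp3-/- cells. The family sum went from 129 ± 1.63 to 417 ± 4.81 FPKM and from 167 ± 3.39 to 349 ± 8.32 FPKM.

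Ratios within a library show the same without reference to other libraries. The ratio of Cebpb to Cebpa was 1.84, 1.82 and 1.83 in wild-type control cells and 367, 27.3 and 23.4 after LPS+ATP, where the first value belongs to the library with low Cebpa. In Nlrp3-/- cells it was 2.53, 2.43 and 2.50 without and 23.7, 24.0 and 22.9 with LPS+ATP. These ratios are descriptions, since 3 libraries against 3 cannot give an exact permutation p under 0.05.

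**Figure D4:**
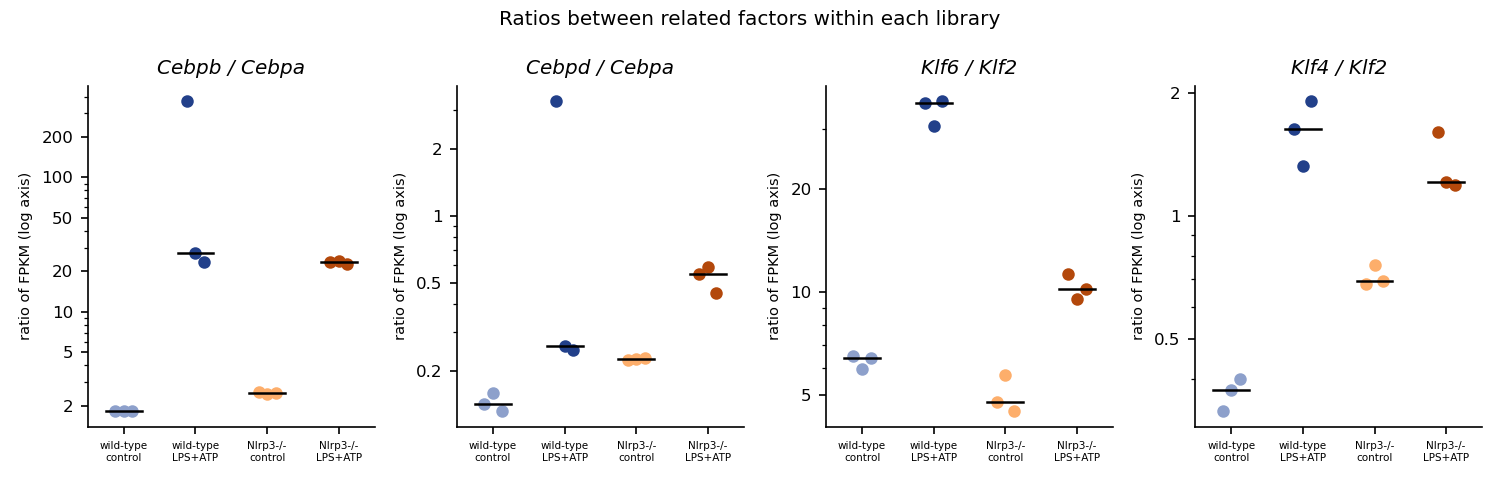
Ratio of FPKM between related factors within each library (vertical log axes), by group; points are libraries and lines are group medians (n = 3). Cebpb to Cebpa moved from medians of 1.83 and 2.50 in control cells to 27.3 and 23.7 after LPS+ATP, and Klf6 to Klf2 from 6.43 and 4.76 to 35.7 and 10.2.

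Maf (ENSMUSG00000055435; chr8:115682942-115707794, minus strand) encodes c-MAF, a large MAF protein that holds back self-renewal and drives Il10. It was at 49.6, 40.0 and 42.2 FPKM in wild-type control cells and at 7.57, 7.45 and 7.72 FPKM after LPS+ATP. The mutant libraries gave 32.4, 31.9 and 31.8 FPKM without and 8.57, 8.13 and 8.80 FPKM with LPS+ATP. Control libraries stood far above stimulated libraries in each genotype, and the genotypes did not overlap in either state.

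Maf fell by 2.38 on the log2 scale in wild-type cells (95% confidence interval −2.53 to −2.24, limma adjusted p = 3.13e-11), or 5.22-fold, and by 1.80 in Nlrp3-/- cells (−1.94 to −1.66, limma adjusted p = 5.10e-10), or 3.48-fold. The difference between the responses was 0.58 (0.38 to 0.79, limma adjusted p = 7.88e-04). Between genotypes, Maf differed by −0.44 in control cells, lower in those lacking NLRP3 (limma adjusted p = 1.91e-04). After LPS+ATP the genotypes differed by 0.15 (limma adjusted p = 0.0869), which turned to −0.02 after median-ratio scaling. That difference passed limma's adjusted p without wild-type control replicate 1 (0.15, adjusted p = 0.0078) or 2 (0.15, adjusted p = 0.04997), after TPM scaling (0.18, adjusted p = 0.0439) and with the compared groups fitted alone (0.15, adjusted p = 0.0353). The antisense gene Gm15655 that overlaps Maf was listed at 0 in every library.

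Klf2 (ENSMUSG00000055148; chr8:72319033-72321656, plus strand) encodes a Krüppel-like factor that restrains inflammatory activation of myeloid cells. Its promoter is shown because its response differed between genotypes. The printed bases stop before the annotated gene (RefSeq, GRCm38.p6 chr8:72318812-72319032, plus strand) and overlap no other gene. Capitals mark the loose NF-kB pattern.
Klf2: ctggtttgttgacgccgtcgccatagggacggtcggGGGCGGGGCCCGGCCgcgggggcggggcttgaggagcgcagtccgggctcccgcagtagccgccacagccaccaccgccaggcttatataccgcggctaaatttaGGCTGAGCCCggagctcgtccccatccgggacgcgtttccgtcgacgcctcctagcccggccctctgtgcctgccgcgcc

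Klf2 was at 11.3, 11.0 and 10.5 FPKM in wild-type control cells and at 2.64, 3.14 and 2.60 FPKM after LPS+ATP. Libraries of mutant cells had 14.2, 12.5 and 15.2 FPKM without and 6.84, 7.84 and 7.65 FPKM with LPS+ATP. Stimulated libraries lay under control libraries in each genotype, and the stimulated Nlrp3-/- libraries lay between the wild-type groups.

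The log2 fold change of Klf2 with LPS+ATP was −1.66 in wild-type cells (95% confidence interval −1.83 to −1.48, limma adjusted p = 3.86e-09). It was −0.82 in Nlrp3-/- cells (−0.99 to −0.65, limma adjusted p = 2.29e-06), and the difference between the responses was 0.83 (0.59 to 1.08, limma adjusted p = 2.33e-04). That difference passed both limits with a pseudocount of 0.1 and with TPM scaling, reaching at most 1.04. After LPS+ATP Klf2 was 1.16 higher in Nlrp3-/- cells (0.98 to 1.33, limma adjusted p = 3.43e-07), or 2.23-fold. Without stimulation the genotypes differed by 0.32 (limma adjusted p = 0.00557), and by 0.18 after median-ratio scaling (limma adjusted p = 0.0909).

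Klf4 (ENSMUSG00000003032; chr4:55527143-55532466, minus strand) encodes a factor of monocyte differentiation that is also active in stromal and epithelial cells. Its promoter is shown because Klf4 was the factor called between genotypes in control cells. The window (RefSeq, GRCm38.p6 chr4:55532476-55532725, minus strand) overlaps no annotated gene. Capitals mark the loose NF-kB pattern.
Klf4: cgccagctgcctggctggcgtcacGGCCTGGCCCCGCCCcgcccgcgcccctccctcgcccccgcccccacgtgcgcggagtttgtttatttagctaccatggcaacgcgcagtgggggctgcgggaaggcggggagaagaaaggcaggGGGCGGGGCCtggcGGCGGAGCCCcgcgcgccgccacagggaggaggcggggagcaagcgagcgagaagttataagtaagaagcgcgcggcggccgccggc

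Klf4 was at 3.76, 4.16 and 4.21 FPKM in wild-type control cells and at 4.31, 4.16 and 4.94 FPKM after LPS+ATP. Nlrp3-/- libraries gave 9.64, 9.50 and 10.5 FPKM without and 11.0, 9.50 and 9.09 FPKM with LPS+ATP. Control and stimulated libraries overlapped within each genotype, while all 6 Nlrp3-/- libraries lay above all 6 wild-type libraries.

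Klf4 was higher in Nlrp3-/- cells by 1.11 on the log2 scale without stimulation (95% confidence interval 0.94 to 1.28, limma adjusted p = 3.39e-07), or 2.16-fold. After LPS+ATP the difference was 0.99 (0.82 to 1.16, limma adjusted p = 1.09e-06), just under the fold limit. It passed the limit without wild-type LPS+ATP replicate 3 (1.05) and without Nlrp3-/- LPS+ATP replicate 2 (1.01) or 3 (1.04), which made 2 of the 9 factors called there. Both values lay near that limit, and after median-ratio scaling the first was 0.96, which left 0 of the 9 factors called in control cells by limma, with 7 at an unadjusted p under 0.05. The response to LPS+ATP was 0.12 in wild-type cells (limma adjusted p = 0.19) and −0.01 in Nlrp3-/- cells (limma adjusted p = 0.935), and these became 0.39 (limma adjusted p = 8.06e-04) and 0.26 (limma adjusted p = 0.0117) after median-ratio scaling. Stromal marker sums were higher in the same libraries, at 1216 against 167 FPKM in control cells. Their part in the Klf4 difference was not tested.

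Klf6 (ENSMUSG00000000078; chr13:5861482-5870394, plus strand) encodes a Krüppel-like factor that acts with NF-kB in inflammatory macrophages. It was at 73.5, 66.0 and 67.6 FPKM in wild-type control cells and at 94.3, 96.0 and 93.4 FPKM after LPS+ATP. Cells lacking NLRP3 had 67.4, 71.5 and 68.3 FPKM without and 77.5, 74.9 and 77.9 FPKM with LPS+ATP. The control groups overlapped, and stimulated wild-type libraries were the highest.

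The rise of Klf6 was 0.45 on the log2 scale in wild-type cells (limma adjusted p = 1.24e-06) and 0.15 in Nlrp3-/- cells (limma adjusted p = 0.00585), with a difference of −0.30 (95% confidence interval −0.43 to −0.17, limma adjusted p = 0.0028). After median-ratio scaling these responses were 0.78 and 0.44. Control cells of the genotypes differed by 0.00 with an interval of −0.09 to 0.09 (limma adjusted p = 0.981), and by −0.15 after median-ratio scaling (limma adjusted p = 0.012). The ratio of Klf6 to Klf2 had medians of 6.43 and 35.7 in wild-type cells and 4.76 and 10.2 in Nlrp3-/- cells, without and with LPS+ATP. The ratio of Klf4 to Klf2 had medians of 0.377 and 1.63 in wild-type cells and 0.693 and 1.21 in Nlrp3-/- cells.

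Promoters were read for the 6 factors with an entry in the RefSeq table, which were Cebpa, Cebpb, Klf2, Klf4, Klf6 and Runx1. The search covered 250 bases before each start on both strands, with TTNNGCAA for C/EBP, GGG and CC 5 bases apart for NF-kB, TGACGTCA for the cyclic AMP response element, TGACTCA for AP-1, GAGGAAGT for PU.1, CACACCC for KLF and TGTGGTT for RUNX proteins. Only the loose NF-kB pattern was found, at least once for each of the 6 factors. Runx1 has an entry at its outer start and 1 at a start inside the gene, and its match lies before the inner start. It occurs in 45.8% of 32841 promoters of that length.

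The other patterns occur in 9.57% of promoters for C/EBP, 1.55% for the cyclic AMP response element, 4.46% for AP-1, 2.44% for PU.1, 6.93% for KLF and 4.4% for RUNX. Some NF-kB matches overlap because the pattern can be read on both strands 1 base apart. The printed windows were rich in G and C, with 81.6% for Cebpb, 66.4% for Cebpa, 71.5% for Klf2 and 74% for Klf4, against a median of 52.4% over all promoters. A match is a match of letters and does not show binding.

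Relatives of the factors were read from lists of family members. Of the 3 other C/EBP family genes, Ddit3, which encodes the stress factor CHOP, rose past both limits in wild-type cells (1.35, limma adjusted p = 1.48e-09; 8.25% of all genes were called higher). Cebpe, a factor of granulocyte maturation, fell past both limits in Nlrp3-/- cells (−1.85; 8.21% of all were called lower) and was called higher there without stimulation (1.23; 6.02% of all). The difference between its responses was −1.20 (limma adjusted p = 1.44e-04; 1.43% of all were called lower). In Nlrp3-/- cells the summed granulocyte precursor markers went from 1925 to 714 FPKM with LPS+ATP, against 369 FPKM in wild-type control cells, and their part in the Cebpe values was not tested. Maff, a small MAF protein gene, was called higher with LPS+ATP in both genotypes (2.35 and 1.39) and was also called higher in Nlrp3-/- control cells (1.00).

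Of 14 other KLF genes 7 were tested, and Klf10, a gene induced by TGF-β, was called lower in both genotypes (−1.06 and −1.05; 11.2% and 8.21% of all genes were called lower). Between genotypes none of the 7 was called by limma, while 6 were higher by the adjusted p alone in control cells (47.8% of all passed in either direction) and 5 after LPS+ATP (48.5% of all), as many as at an unadjusted p under 0.05. After median-ratio scaling these became 2 higher with 1 lower, and 3 higher. Of 6 RUNX relatives and partners 4 were tested, and Runx3 was called higher with LPS+ATP in wild-type cells (1.09; 8.25% of all genes were) and higher in Nlrp3-/- control cells (1.08; 6.02% of all). The median log2 fold change of the KLF list was −0.33 with LPS+ATP in wild-type cells and −0.24 in Nlrp3-/- cells, near the all-gene medians of −0.25 and −0.24.

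Of 18 other ETS genes 16 were tested, and 2 were called higher and 3 lower with LPS+ATP in each genotype. Of all tested genes, 8.25% were called higher and 11.2% lower in wild-type cells, and 6.64% and 8.21% in Nlrp3-/- cells. Fli1 had log2 fold changes of −2.03 in wild-type and −1.67 in Nlrp3-/- cells, Etv5 of −1.66 and −1.21, and Etv3 of −1.43 and −1.19. Spic, the PU.1 relative of red pulp macrophages, rose by 1.79 and 1.95. It was called higher in Nlrp3-/- cells after LPS+ATP (1.04, limma adjusted p = 2.93e-08), as were 4.48% of all genes. Spic was also higher, though not called, in Nlrp3-/- control cells, at 7.29 ± 0.266 against 3.51 ± 0.280 FPKM in wild-type control cells. After LPS+ATP Spic averaged 14.6 ± 0.674 FPKM in wild-type cells and 31.0 ± 0.424 FPKM in those lacking NLRP3.

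Among 16 other myeloid regulators 12 were tested. With LPS+ATP, 1 was called higher in wild-type cells (8.25% of all genes), and 1 higher and 2 lower in Nlrp3-/- cells (6.64% and 8.21% of all). Between genotypes, 3 were called higher in control cells (6.02% of all) and 1 after LPS+ATP (4.48% of all). The responses differed past both limits for Gfi1 (−1.35; 1.43% of all were called lower), which was tested only through its level in Nlrp3-/- control cells. Egr1, an immediate early factor of monocyte differentiation, was called in 4 of the 5 comparisons. Without and with LPS+ATP it averaged 1.70 and 22.7 FPKM in wild-type cells and 7.18 and 66.8 FPKM in those lacking NLRP3, and its responses of 3.13 and 3.05 differed by −0.08 (limma adjusted p = 0.329). Gfi1 and Myb, regulators of granulocytic and early progenitors, reached 1 FPKM only in Nlrp3-/- control libraries, so they passed the filter through that group. They were called higher in those cells (1.38 and 1.03) and lower with LPS+ATP in Nlrp3-/- cells (−1.27 and −1.10). Both are in the counts above. The filter favoured these directions, so no conclusion is drawn from the calls. Gfi1 and Myb averaged 2.54 and 1.41 FPKM in Nlrp3-/- control cells, in which Mpo and Elane of granulocyte precursors averaged 53.3 and 65.5 FPKM. The part of such cells was not tested.

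**Figure D5:**
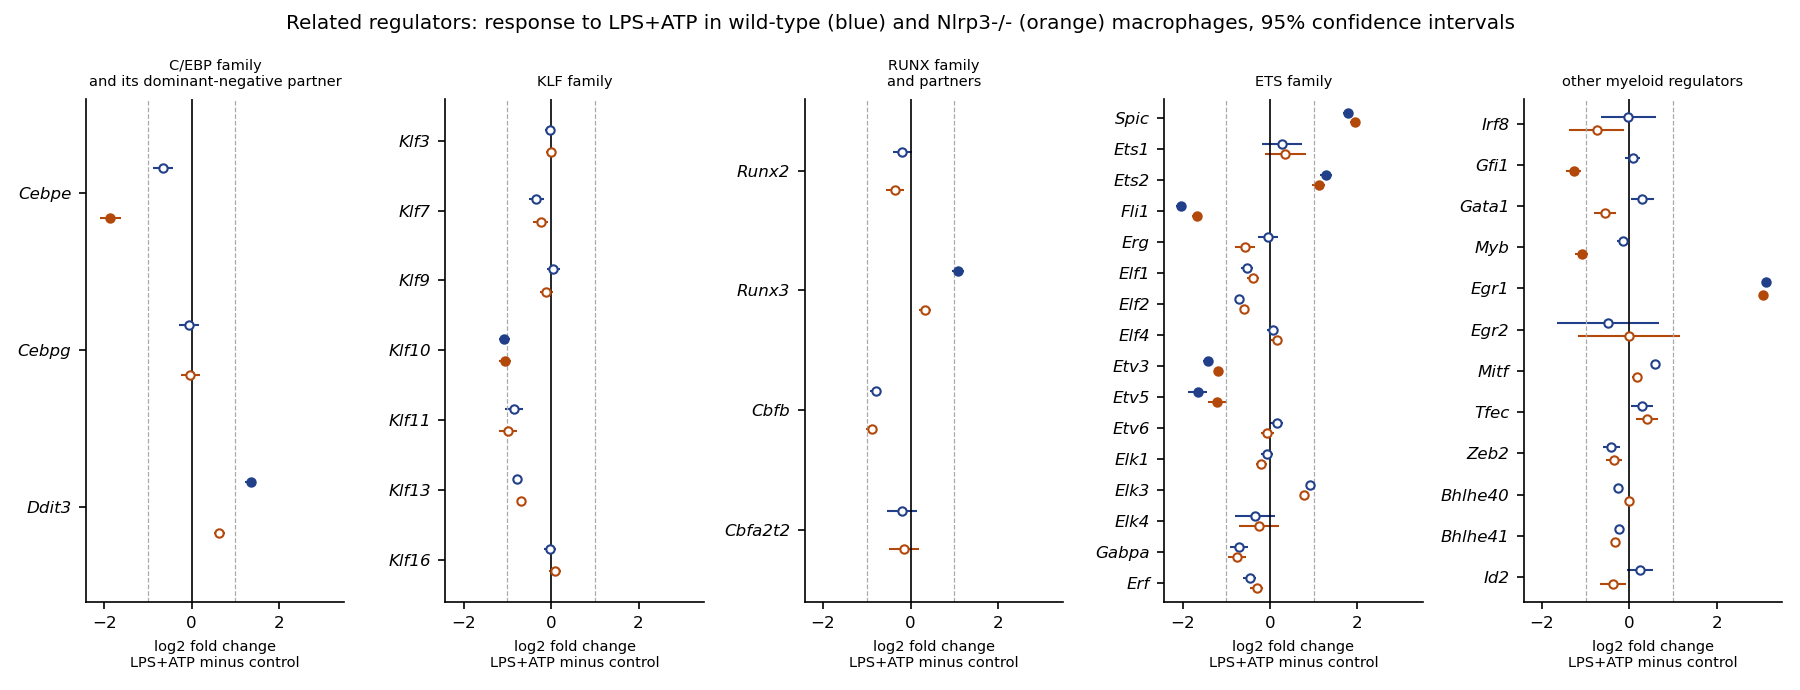
Log2 fold change with LPS+ATP (horizontal axis, 95% confidence intervals from limma over 12 libraries) of tested genes in 5 lists of related regulators, wild-type cells in blue and Nlrp3-/- cells in orange. Filled points passed both limits and dashed lines mark the fold limit of 1; Fli1 fell and Spic and Egr1 rose past both limits in both genotypes.

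Textbook targets of PU.1 and C/EBP did not move as a block. The 12 genes have 13 tested rows, since Itgam is listed under 2 identifiers whose values trade off between libraries, so its level is uncertain. With LPS+ATP, 4 rows were called higher (8.25% of all genes in wild-type and 6.64% in Nlrp3-/- cells) and 3 lower (11.2% and 8.21% of all) in each genotype, and the list medians were 0.15 in wild-type and 0.14 in Nlrp3-/- cells, against −0.25 and −0.24 over all genes. Il6 rose by 5.35 and 4.77 and Nos2, the inducible nitric oxide synthase gene, by 9.72 and 8.07. The Nos2 responses differed by −1.65 (limma adjusted p = 4.14e-07). The 3 called lower were Elane, Mpo and Ctsg, with −2.06, −1.51 and −1.53 in wild-type and −4.78, −5.10 and −3.44 in Nlrp3-/- cells. These 3 are also in the granulocyte precursor list and differed between control cells by 3.70, 4.14 and 3.41. Csf1r, the receptor for macrophage colony-stimulating factor, averaged 253 and 178 FPKM in wild-type cells and 164 and 176 FPKM in those lacking NLRP3, without and with LPS+ATP, and its responses of −0.51 and 0.10 differed by 0.60 (limma adjusted p = 1.50e-06).

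Genes whose pattern was most like each factor were taken from 6514 other genes averaging at least 5 FPKM, by Pearson's r of log2(FPKM + 1) over the 12 libraries. Since the libraries form 4 groups, r mostly follows the group means and is a description. For Cebpb these were Pla2g4a (r = 0.999), Cycs (0.999) and Ptgr1 (0.999), and for Maf they were Antxr2 (0.998), Rin2 (0.998) and Dennd4c (0.998). For Klf2 they were Top2a (0.993), Mycbp2 (0.992) and Snrpb (0.991). The genes nearest to Klf4 were Adamts2 (0.990), Htra1 (0.989) and Hspg2 (0.989).

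Among the other factors, Cebpa was nearest to Nipsnap2 (r = 0.955), Rps25-ps1 (0.939) and Rpl41 (0.932), with the low library included. Cebpd was nearest to Gm2223 (0.989), Eif2s3x (0.988) and Col6a1 (0.984), where Eif2s3x is X-linked and sex went with genotype. Spi1 was nearest to Akr1a1 (0.980), Arl8a (0.980) and Dapk1 (0.967), and Klf6 to Flrt2 (0.981), Adora2b (0.971) and Tgm2 (0.969).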

How the data were processed

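RNA-seq of 12 BMDM libraries was read from a table of FPKM per gene that the authors deposited. Per the labels, RNA was extracted with Trizol, and the submitters' processing notes name GRCm39. The aligner, the counting and its use of strand are not given in the sources used here. Samples were grouped by the labels. FPKM values carry no read totals, so only relative depth could be judged.

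A gene was fitted where 3 or more libraries reached 1 FPKM, using limma 3.58.1 in R 4.3.3 on log2(FPKM + 1), with 1 mean per group, a variance trend and Benjamini-Hochberg adjustment over all tested genes. The test was two-sided and was tested on simulated data. Promoters came from RefSeq and gene positions from GENCODE, both on GRCm38, read with Python 3.11.15. Of each gene list, at most the 4 called genes of largest change were named per comparison, and others named were chosen after their values were seen. The members and lists were chosen with earlier results of these data known. Alternatives covered the pseudocount, filters, scaling, fold limit, replicate block, variance trend, groups fitted alone and each library left out.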

Additional observations from a re-analysis of the deposited data

Results flagged for a closer look

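The response to LPS+ATP differed between both genotypes for 5 of the 9 factors, by the interaction term of limma at an adjusted p under 0.05 (27.7% of all tested genes passed that limit). The difference in log2 fold change, Nlrp3-/- minus wild-type, was −0.78 for Cebpb, 0.58 for Maf, 0.83 for Klf2, −0.30 for Klf6 and 0.33 for Runx1. Its cause was not tested.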

How the results depend on the processing

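With a pseudocount of 0.1 the genes called numbered 3702 and 2847 for LPS+ATP in wild-type and Nlrp3-/- cells, 1428 and 1406 for genotype without and with LPS+ATP, and 634 for the difference between responses, and the factors called numbered 2 for genotype with LPS+ATP and 1 for that difference. TPM scaling gave 1285, 1175 and 501 genes for the genotype comparisons and the difference, with 2 and 1 factors for genotype with LPS+ATP and the difference. In both settings these were Klf2 and Klf4 for genotype with LPS+ATP, and Klf2 for the difference. Cebpa lost its call with LPS+ATP in Nlrp3-/- cells in both settings, under median-ratio scaling and with no filter on low values. A filter of 5 FPKM gave 515 genes for genotype without stimulation. With no fold limit, 9641, 9383, 6035, 6124 and 3494 genes and 8, 7, 7, 7 and 5 factors passed. Median-ratio scaling left 0 factors called by limma for genotype without stimulation, with 7 at an unadjusted p under 0.05. It also moved the share of called genes that were higher from 42.5 to 61.5% in wild-type and from 44.7 to 64.4% in Nlrp3-/- cells. The cause was not tested.

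Some log2 fold changes turned direction. TPM scaling gave 0.05 for Klf4 with LPS+ATP in Nlrp3-/- cells. Median-ratio scaling gave 0.26 there, 0.070 for Runx1 with LPS+ATP in wild-type cells, −0.15 for Klf6 and −0.11 for Cebpa between control cells, and −0.024 for Maf between stimulated cells. Leaving out each library in turn gave −0.081 to 0.044 for Klf4 with LPS+ATP in Nlrp3-/- cells, −0.030 to 0.047 for Klf6 between control cells, −0.17 to 1.35 for Cebpa between stimulated cells and −0.21 to 1.32 for its difference between responses, and 1 to 2 factors called for genotype with LPS+ATP. For Cebpa the negative values are those without wild-type LPS+ATP replicate 1. The cause was not tested.

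Fold changes were counted once per factor, comparison and setting. Besides those that turned, 332 with all libraries and 516 with 1 left out kept direction and side of the adjusted p limit. In the same order, 5 and 2 came to pass that limit and 8 and 14 no longer did. With the replicate block, 2453, 1876, 847, 636 and 268 genes and 4, 3, 1, 1 and 0 factors were called by limma, with 5 factors at an unadjusted p under 0.05 for the last. The labels do not pair libraries across groups, and those that share a number had r of −0.057 to 0.053 between their deviations from the group mean. Groups fitted alone were not run for the difference between responses. FPKM without counts gives no limit on low values.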
